A study of Danio rerio with 6 samples.

Results

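Hox genes encode homeodomain transcription factors that assign position along the head-to-tail axis of an animal embryo. They lie in clusters, and their order in a cluster follows the order of their expression domains along the body, with paralogue group 1 at the head end and paralogue group 13 at the tail end. Low-numbered genes pattern the hindbrain and pharyngeal arches, middle ones the trunk, and high-numbered ones the posterior trunk, the tail and the distal fin. Hox proteins bind DNA together with Pbx and Meis cofactors, retinoic acid is a classic inducer of the low-numbered genes, and Polycomb and Trithorax proteins keep Hox genes off or on.

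The Hox cluster genes were taken as every probe set whose single gene symbol reads hox, a letter a to d, a number, and a or b, with no filter on signal. This gave 59 probe sets of 42 genes, out of 15502 non-control probe sets on the array. The anterior set (paralogue groups 1 to 4) held 17 probe sets of 13 genes, the middle set (groups 5 to 8) 18 probe sets of 12 genes, and the posterior set (groups 9 to 13) 24 probe sets of 17 genes. The gene table of assembly GRCz12tu lists 49 protein-coding genes with such symbols in 7 clusters, and every cluster had members here. Signals of the 59 probe sets ran from 1.95 to 2452, and 15 of them had a mean in the lowest 25% of all probe sets.

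Total RNA of whole zebrafish embryos was measured at 72 hours post fertilization on 6 Affymetrix arrays, 2 for each of 3 groups. Embryos of the ERbeta2 MO group had received, up to the 4 cell stage, 15 uM of a translation-blocking morpholino against the estrogen receptor ERbeta2, and embryos of the coMO group a standard control morpholino at the same 15 uM. A morpholino is an antisense oligomer that pairs with an mRNA. Embryos of the uninjected group received nothing, and all groups came from eggs pooled over several aquaria and were raised at 28 °C. The series title names the development of neuromasts, the sense organs of the lateral line, as its subject. No strain is given in the labels, and whole embryos mix all tissues, so that fewer cells of a type and less RNA per cell cannot be told apart.

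Each array had a 2%-trimmed mean of 500.1 and a median between 196.67 and 220.4, in units of MAS5 signal. The ratio of the GAPDH control probe sets at the 3' and 5' ends, which is usually higher in less intact RNA, was 2.76 and 2.01 on the ERbeta2 MO arrays, 1.95 and 1.23 on the coMO arrays and 1.32 and 1.24 on the uninjected arrays. For actin (acta1) the ratio came to 8.92 and 13.5 on the ERbeta2 MO arrays, 21.8 and 10.8 on the coMO arrays and 3.54 and 4.26 on the uninjected arrays. It was not settled whether esr2a or esr2b is the gene of the target, and a block of translation need not change an mRNA, so these genes do not check the labels. The esr2b probe set read 48.5 and 46.7 on the ERbeta2 MO arrays, 61.2 and 53.5 on the coMO arrays and 57.2 and 55.3 on the uninjected arrays, and the brighter esr2a probe set had 70.9 and 94.9 on the ERbeta2 MO arrays, 62.1 and 54.9 on the coMO arrays and 51.8 and 89.6 on the uninjected arrays. Changes below are differences in log2(signal + 32), which understate those of dim probe sets. Folds given with them are ratios of signal + 32, so they can lie below ratios of the group mean signals. A probe set was called at an adjusted p under 0.05 in limma's moderated test with Benjamini-Hochberg adjustment over all 15502 probe sets.

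The comparison of ERbeta2 MO with coMO asks what the targeted morpholino changed beyond a control injection. None of the 59 Hox probe sets was called in it, while 0.832% of all probe sets were (129 of 15502, with 32 or 0.206% higher and 97 or 0.626% lower). At an unadjusted p under 0.05 in the same limma fit, 5 Hox probe sets were higher and 0 lower, which is 8.47% of them, against 8.02% of all probe sets in the higher direction, 9.04% in the lower and 17.1% in either. These 5 were hoxa9a, hoxb9a, hoxb10a and 2 probe sets of hoxb8a, so no anterior probe set was among them. A constant and a robust prior for the variance also called 0 of the 59.

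The comparison of ERbeta2 MO with uninjected embryos combines the targeted morpholino with the injection itself. There, 5 Hox probe sets were called higher and 0 lower, 1 each of hoxb3a, hoxb8a, hoxb9a, hoxb10a and hoxa9a. That is 8.47% of the 59 Hox probe sets called in either direction, against 13.3% of all probe sets (2065 of 15502). The uncalled probe sets of hoxb8a and hoxb10a had changes on both sides of 0. Those of hoxa9a and hoxb9a changed by 0.17 and 0.52. At an unadjusted p under 0.05, 11 Hox probe sets (18.6%) were higher and 0 lower, against 14.4% and 15.9% of all probe sets and 30.3% in either direction. Among calls in the higher direction the Hox share of 8.47% stood beside 5.66% of all probe sets, and in the lower direction 0 Hox probe sets stood beside 7.66%. By position, 1 of 17 anterior, 1 of 18 middle and 3 of 24 posterior probe sets were called. All 5 calls were lost without uninjected replicate 1, where 0 of 15502 probe sets were called, and without uninjected replicate 2, where 259 were.

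The comparison of coMO with uninjected embryos asks what injection with a control morpholino changed. None of the 59 Hox probe sets was called, and limma called 0.0% of all probe sets. At an unadjusted p under 0.05, 3 Hox probe sets were higher and 0 lower, which is 5.08% of them, against 4.97% of all probe sets in the higher direction, 6.24% in the lower and 11.2% in either. They were hoxb3a, a dim probe set of hoxb10a and hoxd4a. A constant and a robust prior also called 0 of the 15502.

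**Figure D1:**
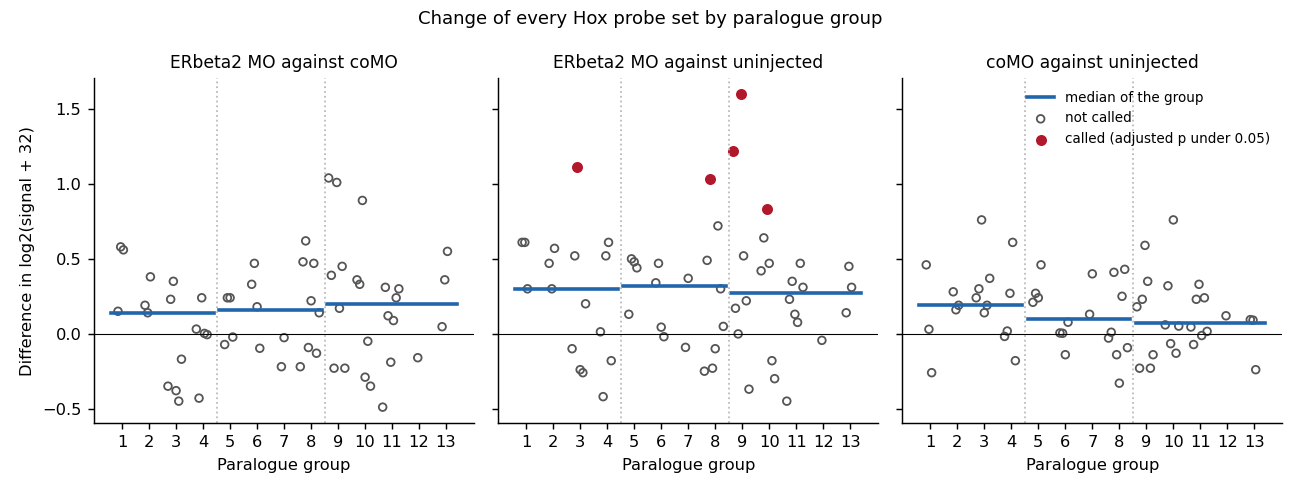
Difference in log2(signal + 32) of each of the 59 Hox probe sets (y axis) by paralogue group 1 to 13 (x axis), in the 3 comparisons, with blue lines at the medians of the anterior, middle and posterior sets and dotted lines between them. Filled points are the 5 called probe sets, all in ERbeta2 MO against uninjected embryos and all above 0.

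Most Hox probe sets moved by less than 1 on the log2 scale, and the 3 axial sets had similar medians. Against coMO the Hox median in ERbeta2 MO was 0.15, with 0.14 for anterior, 0.16 for middle and 0.20 for posterior probe sets, beside -0.0084 for all probe sets. Against uninjected embryos it was 0.30, with 0.30, 0.32 and 0.27 in that order, beside 0.0097 for all probe sets. For coMO against uninjected embryos it was 0.13, with 0.19, 0.10 and 0.075, beside 0.0098. Each pair of comparisons shares the arrays of 1 group, so the medians are not independent of each other. No test was made of the difference between axial sets.

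The medians depended on single arrays. Against coMO, leaving out ERbeta2 MO replicate 1 gave a Hox median of 0.33 and a middle median of 0.43, and leaving out replicate 2 gave -0.018 and -0.12. Against uninjected embryos, leaving out ERbeta2 MO replicate 1 gave a middle median of 0.52 and a posterior one of 0.39, and leaving out replicate 2 gave -0.0041 and 0.18. For coMO against uninjected embryos, the Hox median was 0.17 without coMO replicate 1 and 0.063 without either coMO replicate 2 or uninjected replicate 1. The middle median there ran from -0.045 without coMO replicate 2 to 0.19 without coMO replicate 1, the posterior one from -0.003 without uninjected replicate 1 to 0.098 without uninjected replicate 2, and the anterior one from 0.098 to 0.31 without those same uninjected arrays.

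In every group more Hox probe sets were higher on the array numbered 2 than on the array numbered 1. This held for 45 of 59 (76.3%, against 56.9% of all probe sets) in ERbeta2 MO, 37 (62.7%, against 52.3%) in coMO and 41 (69.5%, against 54.5%) in uninjected embryos. The median Hox difference between the arrays was 0.23 in ERbeta2 MO, 0.057 in coMO and 0.085 in uninjected embryos. Middle probe sets had 16, 15 and 13 of 18 higher on replicate 2 in ERbeta2 MO, coMO and uninjected embryos, anterior ones 13, 12 and 12 of 17, and posterior ones 16, 10 and 16 of 24. The control ratios of the ERbeta2 MO arrays went opposite ways, with GAPDH at 2.76 on replicate 1 and 2.01 on replicate 2 and acta1 at 8.92 and 13.5, and the part of RNA quality in the Hox differences was not tested.

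**Figure D2:**
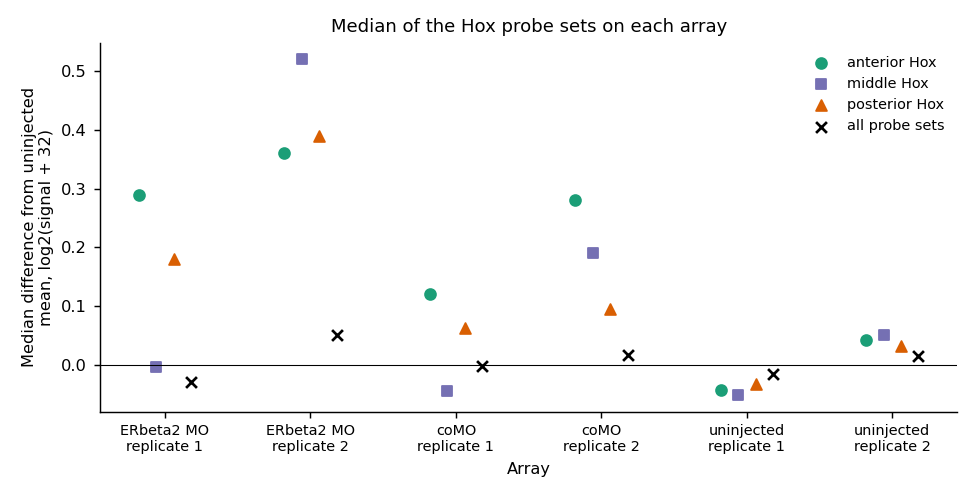
Median over anterior, middle and posterior Hox probe sets and over all probe sets (symbols) of the difference in log2(signal + 32) from the mean of the uninjected arrays (y axis), for each of the 6 arrays (x axis). The middle set lay at -0.0041 on ERbeta2 MO replicate 1 and at 0.52 on ERbeta2 MO replicate 2, while all probe sets lay between -0.029 and 0.051 on the 6 arrays.

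With 2 arrays a group, separation of the groups was common. ERbeta2 MO arrays lay above both coMO arrays in 24 of the 59 Hox probe sets (40.7%, against 22.4% of all probe sets) and below them in 6 (10.2%, against 22.3%). ERbeta2 MO arrays lay above both uninjected arrays in 30 (50.8%, against 29.6%) and below them in 6 (10.2%, against 28.3%). The coMO arrays lay above both uninjected arrays in 20 (33.9%, against 25.8%) and below them in 6 (10.2%, against 25%). The log2 change was above 0 in 37 Hox probe sets (62.7%, against 49.2% of all) for ERbeta2 MO against coMO, in 43 (72.9%, against 50.8%) for ERbeta2 MO against uninjected embryos, and in 43 (72.9%, against 51.1%) for coMO against uninjected embryos. In all 3 comparisons more Hox probe sets were separated upwards than downwards, and in all probe sets the 2 directions were nearly equal.

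Among the anterior genes, hoxb3a, which acts in the posterior hindbrain, was the member called. Its signals were 2408 and 2452 on the ERbeta2 MO arrays, 1933 and 1861 on the coMO arrays and 1042 and 1177 on the uninjected arrays (means 2430 ± 31.3, 1897 ± 51.3 and 1109 ± 95.7, SD, n = 2 each). The 3 groups did not overlap, with coMO between the others. Against uninjected embryos hoxb3a rose 2.16-fold (1.11 on the log2 scale, SE 0.177, adjusted p = 0.00917 in limma). Its change was 0.35 against coMO (adjusted p = 0.354), and coMO exceeded uninjected embryos by 0.76 (adjusted p = 0.35), neither of which passed. In the gene table the hoxb3a record overlaps those of hoxb4a, hoxb5a and hoxb6a, and probe positions were not available to place its probe set.

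The gene hoxb2a patterns hindbrain segments and had 2 probe sets. The brighter gave 453 and 606 on the ERbeta2 MO arrays, 403 and 390 on the coMO arrays and 313 and 375 on the uninjected arrays, a change of 0.57 against uninjected embryos that did not pass (adjusted p = 0.124). Its partner gave 125 and 132 on the ERbeta2 MO arrays, 113 and 114 on the coMO arrays and 89.9 and 107 on the uninjected arrays, a change of 0.30 (adjusted p = 0.414). In both, ERbeta2 MO lay highest and the uninjected group lowest, without overlap. Without ERbeta2 MO replicate 1 the brighter probe set was called (0.77, adjusted p = 0.0449).

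The remaining anterior genes did not pass in any comparison. The hoxc4a signals were 410 and 572 on the ERbeta2 MO arrays, 335 and 487 on the coMO arrays and 319 and 340 on the uninjected arrays, so the coMO arrays overlapped both other groups (changes 0.24 and 0.52 of ERbeta2 MO against coMO and uninjected embryos, adjusted p = 0.677 and 0.21). The hoxb4a gene, which marks the caudal hindbrain and spinal cord, went the other way from hoxb3a, with 99.3 and 134 on the ERbeta2 MO arrays, 150 and 186 on the coMO arrays and 150 and 182 on the uninjected arrays. Both of its ERbeta2 MO arrays lay below the other 4, with changes of -0.43 and -0.42 against coMO and uninjected embryos (adjusted p = 0.407 and 0.293). The dim hoxc1a probe set gave 36.3 and 11.6 on the ERbeta2 MO arrays, 2.96 and 7 on the coMO arrays and 9.46 and 15.2 on the uninjected arrays, a change of -0.26 between coMO and uninjected embryos (adjusted p = 0.747), and lay in the lowest 25% of all probe sets.

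For hoxd4a, a retinoic acid target gene of the caudal hindbrain, the probe sets disagreed. One gave 320 and 381 on the ERbeta2 MO arrays, 383 and 316 on the coMO arrays and 231 and 203 on the uninjected arrays, so both injected groups lay above the uninjected one by 0.61 (adjusted p = 0.0973 for ERbeta2 MO and 0.385 for coMO). The other gave 117 and 176 on the ERbeta2 MO arrays, 142 and 148 on the coMO arrays and 176 and 160 on the uninjected arrays, with changes of -0.18 for both. The first carries the cluster name that a guca1b probe set also carries (guca1b is a photoreceptor gene), so its identity is less certain.

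The group 3 genes hoxa3a and hoxd3a, which act in the hindbrain and posterior arches, had 2 probe sets each. One of hoxa3a gave 151 and 316 on the ERbeta2 MO arrays, 265 and 314 on the coMO arrays and 213 and 267 on the uninjected arrays, and its partner gave 153 and 190 on the ERbeta2 MO arrays, 174 and 114 on the coMO arrays and 108 and 110 on the uninjected arrays. Their changes against uninjected embryos were -0.10 and 0.52 (adjusted p = 0.871 and 0.206). The ERbeta2 MO arrays of the first spanned the whole range of the other groups. For hoxd3a the brighter gave 168 and 265 on the ERbeta2 MO arrays, 235 and 249 on the coMO arrays and 178 and 183 on the uninjected arrays, and the dim one 6.34 and 5.88 on the ERbeta2 MO arrays, 9.37 and 33.3 on the coMO arrays and 17.5 and 10.2 on the uninjected arrays, with changes against coMO of -0.17 and -0.45 (adjusted p = 0.78 and 0.44).

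The other anterior members were hoxa1a, hoxb1a, hoxa2b, hoxc3a and hoxa4a, with changes in ERbeta2 MO between -0.38 and 0.58 against coMO and between -0.24 and 0.61 against uninjected embryos. The hoxa4a signals differed least, with 288 and 270 on the ERbeta2 MO arrays, 244 and 303 on the coMO arrays and 280 and 272 on the uninjected arrays. The gene hoxb1a sets the identity of the fourth hindbrain segment, and its signals of 49 and 89.2 on the ERbeta2 MO arrays, 38.5 and 30.5 on the coMO arrays and 28.9 and 37.5 on the uninjected arrays did not overlap between ERbeta2 MO and the others. Its changes were 0.58 against coMO and 0.61 against uninjected embryos (adjusted p = 0.313 and 0.164), and its mean signal of 45.6 lay in the lowest 25% of all probe sets.

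Among the middle genes, a probe set of the trunk gene hoxb8a was called. It gave 1002 and 1062 on the ERbeta2 MO arrays, 797 and 544 on the coMO arrays and 496 and 481 on the uninjected arrays (means 1032 ± 42.5, 671 ± 179 and 489 ± 10.8, SD, n = 2 each). The groups did not overlap, and the coMO arrays differed more from each other than those of either other group. Against uninjected embryos it rose 2.04-fold (1.03, SE 0.223, adjusted p = 0.0225), and its change against coMO was 0.62 (adjusted p = 0.213). A second hoxb8a probe set gave 511 and 482 on the ERbeta2 MO arrays, 340 and 355 on the coMO arrays and 340 and 349 on the uninjected arrays, with changes of 0.48 against coMO and 0.49 against uninjected embryos (adjusted p = 0.258 and 0.129). The suffix of its name marks probes that can match more than one transcript. The remaining one gave 54.7 and 54.9 on the ERbeta2 MO arrays, 65 and 73.9 on the coMO arrays and 59.2 and 85.2 on the uninjected arrays, with the opposite sign (-0.22 against coMO and -0.25 against uninjected embryos).

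The trunk gene hoxc8a had the same pattern in its brightest probe set, short of a call. Its signals were 1952 and 2312 on the ERbeta2 MO arrays, 1517 and 1532 on the coMO arrays and 1097 and 1485 on the uninjected arrays, a change of 0.72 against uninjected embryos (adjusted p = 0.0558). It was called with the lowest 25% of probe sets left out (adjusted p = 0.0495), with arrays centred on their median (0.84, adjusted p = 0.0313) and without ERbeta2 MO replicate 1 (0.84, adjusted p = 0.0338). The 2 dimmer hoxc8a probe sets gave 69.2 and 130 on the ERbeta2 MO arrays, 60.3 and 114 on the coMO arrays and 96.1 and 87.7 on the uninjected arrays, and 18.3 and 76.5 on the ERbeta2 MO arrays, 49.9 and 47.8 on the coMO arrays and 42.8 and 16 on the uninjected arrays. In both, the ERbeta2 MO arrays overlapped the other groups, with changes against uninjected embryos of 0.049 and 0.30.

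The group 5 gene hoxb5a, which takes part in positioning the zebrafish pectoral fin, gave 1140 and 1643 on the ERbeta2 MO arrays, 1132 and 1182 on the coMO arrays and 832 and 1098 on the uninjected arrays. Both injected groups lay above the uninjected arrays, and the change of 0.50 in ERbeta2 MO did not pass (adjusted p = 0.191). It was called without ERbeta2 MO replicate 1 (0.76, adjusted p = 0.0443), as were hoxb5b (1.02, adjusted p = 0.0272) and hoxc5a (0.79, adjusted p = 0.0436). With hoxb2a and hoxc8a added and hoxb10a lost, 9 Hox probe sets were called in that fit. The other group 5 genes gave 349 and 777 on the ERbeta2 MO arrays, 416 and 463 on the coMO arrays and 312 and 432 on the uninjected arrays for hoxb5b. For hoxc5a these were 235 and 403 on the ERbeta2 MO arrays, 299 and 328 on the coMO arrays and 214 and 223 on the uninjected arrays. For hoxa5a they were 114 and 291 on the ERbeta2 MO arrays, 207 and 186 on the coMO arrays and 159 and 173 on the uninjected arrays. In these 3 genes the ERbeta2 MO arrays spanned both coMO arrays.

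The genes of groups 6 and 7 did not pass, nor did hoxb8b. The hoxb6a signals of 194 and 218 on the ERbeta2 MO arrays lay above 147 and 167 on the coMO arrays and 151 and 162 on the uninjected arrays, and hoxb6b likewise had 257 and 331 on the ERbeta2 MO arrays, 184 and 221 on the coMO arrays and 225 and 180 on the uninjected arrays. Their changes against coMO were 0.33 and 0.47 (adjusted p = 0.478 and 0.351). For hoxc6a and hoxc6b the groups overlapped in every comparison. The brighter hoxb7a probe set gave 67.8 and 102 on the ERbeta2 MO arrays, 78.2 and 94 on the coMO arrays and 54.4 and 60.6 on the uninjected arrays, and the dimmer 33.5 and 39 on the ERbeta2 MO arrays, 33.3 and 64.3 on the coMO arrays and 45.4 and 36.1 on the uninjected arrays, so only the first placed both injected groups above the uninjected one. The hoxb8b probe sets gave 107 and 129 on the ERbeta2 MO arrays, 91 and 101 on the coMO arrays and 109 and 151 on the uninjected arrays, and 30.5 and 35.9 on the ERbeta2 MO arrays, 26.6 and 50.4 on the coMO arrays and 27.7 and 65.7 on the uninjected arrays. The lowest Hox difference of coMO against uninjected embryos was in the first of these (-0.33, adjusted p = 0.647).

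Of the 24 posterior probe sets 3 were called (12.5%, against 13.3% of all probe sets). The hoxb9a gene, active in the posterior trunk, gave 1087 and 876 on the ERbeta2 MO arrays, 640 and 343 on the coMO arrays and 301 and 300 on the uninjected arrays (means 981 ± 149, 492 ± 210 and 301 ± 0.542, SD, n = 2 each). The groups did not overlap. It had the largest Hox change, a 3.03-fold rise against uninjected embryos (1.60, SE 0.286, adjusted p = 0.0126), and changes of 1.01 against coMO (95% interval 0.35 to 1.66, adjusted p = 0.135) and 0.59 between coMO and uninjected embryos (adjusted p = 0.484). The second hoxb9a probe set gave 189 and 226 on the ERbeta2 MO arrays, 178 and 183 on the coMO arrays and 155 and 116 on the uninjected arrays, the same order with changes of 0.17 and 0.52 of ERbeta2 MO against coMO and uninjected embryos (adjusted p = 0.767 and 0.17).

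The neighbouring gene hoxb10a gave 300 and 288 on the ERbeta2 MO arrays, 160 and 128 on the coMO arrays and 144 and 159 on the uninjected arrays (means 294 ± 8.66, 144 ± 22.3 and 152 ± 10.7, SD, n = 2 each). Here coMO overlapped the uninjected group, and both ERbeta2 MO arrays lay above the other 4. It rose 1.78-fold against uninjected embryos (0.83, SE 0.22, adjusted p = 0.0422), and its change against coMO of 0.89 did not pass (95% interval 0.39 to 1.40, adjusted p = 0.0967). This call was the least stable of the 5 and was lost without any 1 of the 6 arrays (changes 0.77 to 0.89). The other hoxb10a probe sets gave 105 and 136 on the ERbeta2 MO arrays, 152 and 102 on the coMO arrays and 113 and 171 on the uninjected arrays, and 14.5 and 18.9 on the ERbeta2 MO arrays, 42.1 and 15.5 on the coMO arrays and 4.12 and 1.95 on the uninjected arrays, with changes of -0.18 and 0.47 against uninjected embryos. They did not repeat the separation of ERbeta2 MO from coMO.

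For hoxa9a the pattern was like that of hoxb10a. The called probe set gave 217 and 231 on the ERbeta2 MO arrays, 96.7 and 88.9 on the coMO arrays and 59.5 and 99.8 on the uninjected arrays (means 224 ± 9.43, 92.8 ± 5.5 and 79.6 ± 28.5, SD, n = 2 each). It rose 2.33-fold against uninjected embryos (1.22, SE 0.252, adjusted p = 0.0194), and its change against coMO, the largest of any Hox probe set there, was 1.04 (95% interval 0.46 to 1.61, adjusted p = 0.0963). The second hoxa9a probe set gave 120 and 118 on the ERbeta2 MO arrays, 86.9 and 78.5 on the coMO arrays and 99.3 and 105 on the uninjected arrays, with changes of 0.39 against coMO and 0.17 against uninjected embryos (adjusted p = 0.402 and 0.654). ERbeta2 MO lay highest in both.

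**Figure D3:**
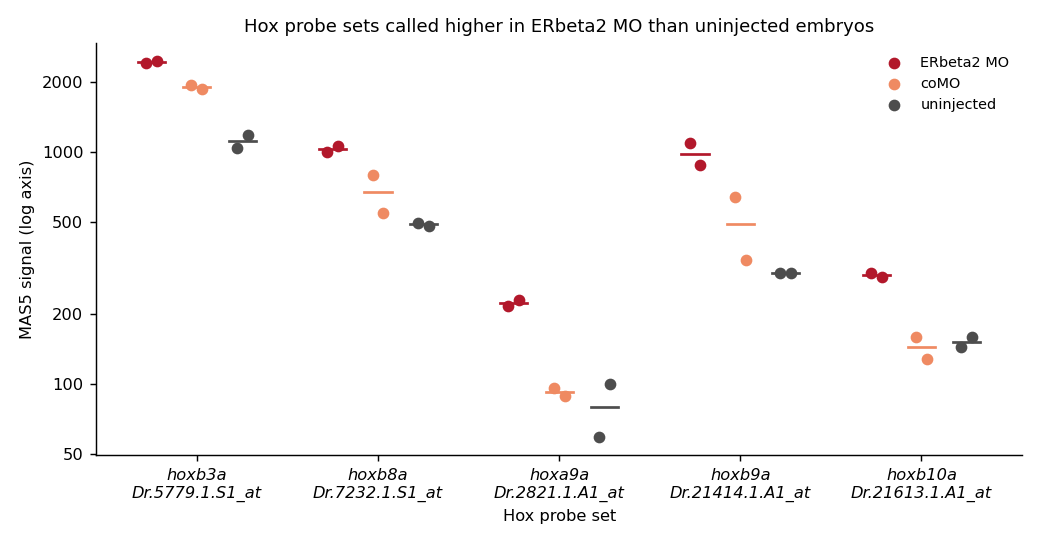
MAS5 signal on a log axis (y axis) of the 5 called Hox probe sets (x axis), with 1 point per array, a line at each group's mean, and ERbeta2 MO, coMO and uninjected embryos from left to right. For hoxb3a, hoxb8a and hoxb9a coMO lay between the other groups, whereas for hoxa9a and hoxb10a coMO overlapped the uninjected arrays.

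The remaining posterior genes did not pass. The hoxc13a gene of the tail gave 436 and 352 on the ERbeta2 MO arrays, 332 and 270 on the coMO arrays and 286 and 272 on the uninjected arrays, with ERbeta2 MO highest (changes of 0.36 against coMO and 0.45 against uninjected embryos, adjusted p = 0.45 and 0.211). The hoxd10a gene gave 239 and 259 on the ERbeta2 MO arrays, 326 and 328 on the coMO arrays and 321 and 308 on the uninjected arrays, with ERbeta2 MO lowest (-0.35 against coMO and -0.30 against uninjected embryos, adjusted p = 0.413 and 0.354). Its cluster neighbour hoxd9a was lowest in ERbeta2 MO too, with 65.3 and 82.9 on the ERbeta2 MO arrays, 87.8 and 96.2 on the coMO arrays and 108 and 102 on the uninjected arrays (-0.23 against coMO and -0.37 against uninjected embryos, adjusted p = 0.661 and 0.312). The fin and tail gene hoxd13a lay the other way, with 68.3 and 82.3 on the ERbeta2 MO arrays, 29.5 and 55.5 on the coMO arrays and 52.9 and 56 on the uninjected arrays (0.55 against coMO and 0.31 against uninjected embryos, adjusted p = 0.32 and 0.461). Its mean signal of 57.4 lay in the lowest 25% of all probe sets.

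Genes of groups 10 and 11 in the hoxa and hoxc clusters had changes of both signs. The brighter hoxa10b probe set gave 209 and 292 on the ERbeta2 MO arrays, 215 and 170 on the coMO arrays and 147 and 148 on the uninjected arrays, and the dim one 16.2 and 18.5 on the ERbeta2 MO arrays, 7.47 and 5.48 on the coMO arrays and 6.17 and 3.7 on the uninjected arrays, with changes against uninjected embryos of 0.64 and 0.42 (adjusted p = 0.116 and 0.221). The hoxa11a probe set gave 42.9 and 36.5 on the ERbeta2 MO arrays, 42.4 and 104 on the coMO arrays and 63.3 and 68.1 on the uninjected arrays, and had the lowest Hox changes of ERbeta2 MO against both coMO (-0.49) and uninjected embryos (-0.45). It also lay in the lowest 25% of all probe sets. The 3 probe sets of hoxc11a gave 191 and 286 on the ERbeta2 MO arrays, 228 and 198 on the coMO arrays and 155 and 202 on the uninjected arrays, then 65.1 and 101 on the ERbeta2 MO arrays, 80.3 and 69.4 on the coMO arrays and 73 and 78.3 on the uninjected arrays, then 5.18 and 28.4 on the ERbeta2 MO arrays, 4.88 and 47.6 on the coMO arrays and 20.5 and 3.68 on the uninjected arrays, and their groups overlapped in every comparison. For hoxc9a, hoxa9b, hoxd11a, hoxa11b, hoxc11b, hoxc12b and hoxa13b, changes in ERbeta2 MO ran from -0.23 to 0.45 against coMO and from -0.044 to 0.47 against uninjected embryos.

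By cluster, 4 of the 5 called probe sets belonged to hoxba and 1 to hoxaa. The hoxba cluster had 17 probe sets here, and its median change of ERbeta2 MO against uninjected embryos was 0.49, beside 0.15 for the 8 of hoxaa, 0.33 for the 6 of hoxab, 0.19 for the 4 of hoxbb, 0.30 for the 13 of hoxca, -0.020 for the 3 of hoxcb and 0.0066 for the 8 of hoxda. Of the 17, 13 had both ERbeta2 MO arrays above both uninjected arrays and 2 had them below, where 29.6% of all probe sets lay above and 28.3% below. Called in hoxba were 23.5% of its probe sets, against 13.3% of all probe sets. Of its 4 called genes, 3 (hoxb8a, hoxb9a and hoxb10a) follow each other in the gene table, but hoxb3a is separated from them by hoxb4a, hoxb5a, hoxb6a and hoxb7a, of which none was called. The coMO arrays also lay above both uninjected arrays in 9 of the 17 hoxba probe sets (52.9%, against 25.8% of all probe sets). Against coMO, 0 of the 17 were called, beside 0.832% of all probe sets. The change of ERbeta2 MO against uninjected embryos was above 0 in 13 of 17 hoxba and 12 of 13 hoxca probe sets, beside 50.8% of all. Clusters were compared by description only.

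**Figure D4:**
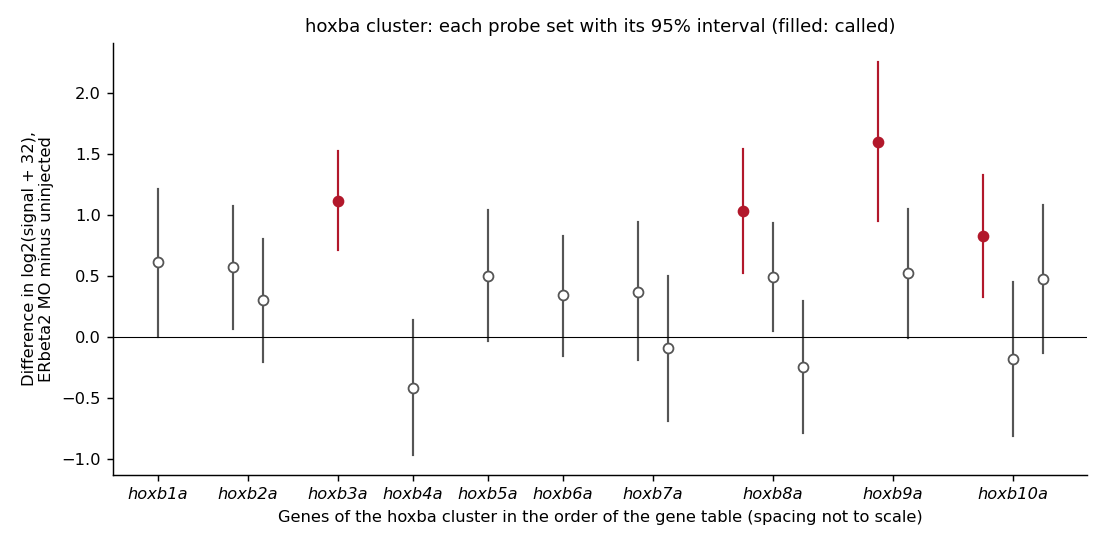
Difference in log2(signal + 32) of ERbeta2 MO minus uninjected embryos, with its 95% interval (y axis), for each of the 17 hoxba probe sets in the gene order of the cluster (x axis, spacing not to scale), brightest probe set of a gene first. The called probe sets of hoxb3a, hoxb8a, hoxb9a and hoxb10a are filled, and hoxb4a lies below 0 at -0.42.

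Calls rested on 1 probe set of a gene wherever there were several. Of the 42 genes, 13 had more than 1 probe set, 9 with 2 and 4 with 3, and none had more than 1 called. Against uninjected embryos the probe sets of a gene differed by a median of 0.62 and at most 1.28 (hoxb8a), with opposite signs in 6 of the 13 genes. Of the 5 called genes, hoxb3a had only 1 probe set, and hoxb8a and hoxb10a had probe sets of both signs. In 8 pairs of probe sets with the same cluster number, 1 named A1 and 1 named S1, the A1 member was lower on all 6 arrays, at 1.95 to 85.2 against 54.4 to 511. The called A1 probe sets of hoxa9a, hoxb9a and hoxb10a were not in such pairs. Without probe sequences, the strand that A1 and S1 probe sets measure could not be checked. The S1 probe sets of these 3 genes were not called, with changes against uninjected embryos of 0.17, 0.52 and -0.18 in that order.

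**Figure D5:**
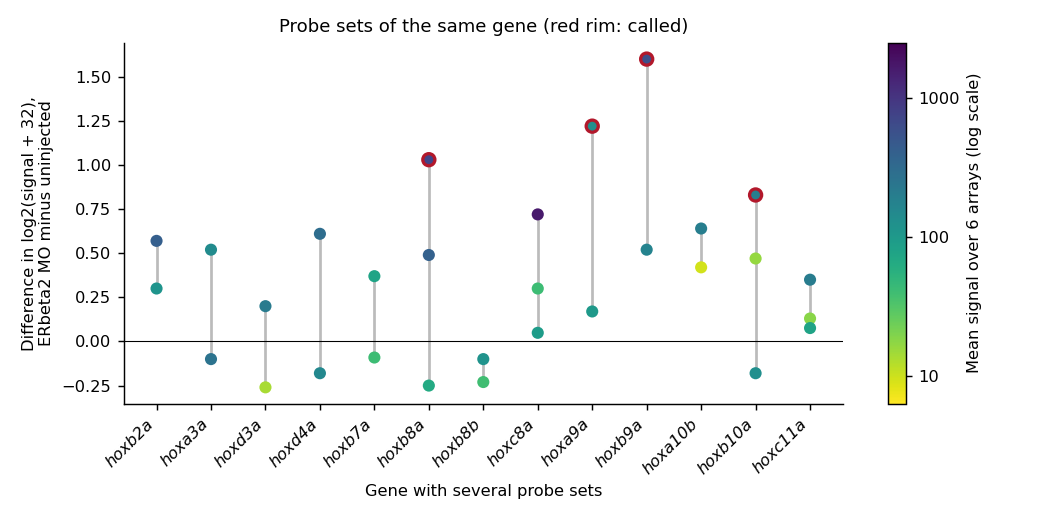
Difference in log2(signal + 32) of ERbeta2 MO minus uninjected embryos (y axis) for each probe set of the 13 genes that have several (x axis), coloured by mean signal over the 6 arrays, with a red rim on called probe sets. Within a gene the points spread by up to 1.28, and in 6 genes they lie on both sides of 0.

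Among proteins that work with Hox factors, the Pbx and Meis cofactors had 12 of 14 listed genes on the array. Against uninjected embryos 4 rose (33.3%, against 5.66% of all probe sets) and 0 fell (against 7.66%), with a median of 0.61. In this and the following lists the brightest probe set stands for a gene, whereas the shares over all probe sets include dim ones. The hindbrain Pbx gene pbx4 gave 1840 and 2025 on the ERbeta2 MO arrays, 1241 and 1029 on the coMO arrays and 590 and 840 on the uninjected arrays, a rise of 1.41 (SE 0.223, adjusted p = 0.00905). The Meis gene meis2b rose by 1.14 (adjusted p = 0.0162) and meis2a by 1.05 (adjusted p = 0.0279), and the Pbx gene pbx3b by 1.00 (adjusted p = 0.0148). Against coMO the list had 0 called genes and a median of 0.11, and coMO against uninjected embryos had 0 called and a median of 0.37.

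Of 23 measured Polycomb and Trithorax genes, 3 rose (13%, against 5.66% of all probe sets) and 0 fell (against 7.66%) relative to uninjected embryos, with a median of 0.60. In either direction the list share of 13% was close to the 13.3% of all probe sets. They were ezh2, the H3K27 methyltransferase of Polycomb (0.93, adjusted p = 0.044), wdr5, a subunit of Trithorax-type complexes (0.81, adjusted p = 0.0279), and rbbp4, a histone-binding subunit of several complexes (0.68, adjusted p = 0.0454). None was called in the other comparisons, with medians of 0.40 against coMO and 0.26 for coMO against uninjected embryos. In the retinoic acid pathway list of 18 measured genes, only rbp4 was called, a retinol carrier made by the liver (5.56% of the list lower against uninjected embryos, beside 7.66% of all probe sets). It fell to 4502 and 3315 on the ERbeta2 MO arrays, against 10052 and 15826 on the coMO arrays and 18408 and 17849 on the uninjected arrays, changes of -1.70 against coMO (adjusted p = 0.0314) and -2.22 against uninjected embryos (adjusted p = 0.00458). Against coMO the list share called lower was also 5.56%, beside 0.626% of all probe sets. The list's medians were 0.079 against coMO and 0.077 against uninjected embryos, and the retinoic acid synthesis gene aldh1a2 and the breakdown gene cyp26a1 were not called.

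Of 11 measured upstream regulators, gbx1, a regional gene of the anterior hindbrain, was called higher against uninjected embryos (0.97, adjusted p = 0.041, which is 9.09% of the list beside 5.66% of all probe sets), and 0 of 6 ParaHox and eve-type genes was called. The medians of these lists against uninjected embryos were 0.059 and 0.20, and against coMO -0.05 and 0.037.

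Genes from lists of hindbrain and spinal cord neurons and of the forebrain to the midbrain-hindbrain boundary were also called against uninjected embryos. Of 21 measured hindbrain and spinal cord neuron genes 5 were called higher (23.8%, against 5.66% of all probe sets) and 0 lower (against 7.66%), with a median of 0.56, among them lhx1a (1.37, adjusted p = 0.017), pax2a (1.07, adjusted p = 0.0178) and dbx1a (0.92, adjusted p = 0.0296). Their summed signal was 10249 to 15297 in ERbeta2 MO, 9343 to 10524 in coMO, and 7453 to 8060 in uninjected embryos. Of 23 regional genes of the forebrain to the midbrain-hindbrain boundary, where Hox genes are largely silent, 4 were higher (17.4%, against 5.66%) and 0 lower (against 7.66%), with a median of 0.35, led by pax2b (1.29, adjusted p = 0.0383), pax2a and en1b (0.98, adjusted p = 0.0344), and gbx1 is in this list as well. The summed signal was 7761 to 11073 in ERbeta2 MO, 8045 to 8974 in coMO, and 6507 to 6510 in uninjected embryos. Called genes were thus found in both lists, but the lists are not separate. The called gene pax2a is in both, and gbx1 is also a regional gene of the anterior hindbrain. In the forebrain to boundary list, calls were limited to pax2a, pax2b, en1b and gbx1. Its otx, emx and dmbx1a genes were not called, with changes between 0.11 and 0.9 against uninjected embryos. Of all 23 genes of that list, 19 had changes above 0. The calls therefore do not show a rise across forebrain and midbrain genes. Whether the called genes changed in tissue with or without Hox expression was not tested.

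Lists of other Hox-expressing tissues moved less evenly. Of 24 pharyngeal arch and neural crest genes 2 were called higher (8.33%, against 5.66% of all probe sets), foxd3 (1.00, adjusted p = 0.0173) and tfap2a (0.81, adjusted p = 0.0476), with a median of 0.037 and summed signals of 15162 to 15180 in ERbeta2 MO, 12622 to 14044 in coMO, and 10819 to 11705 in uninjected embryos. Bright genes weigh most in such a sum. The bright tfap2a gave 3673 and 4852 on the ERbeta2 MO arrays and 2134 and 2692 on the uninjected arrays, whereas only 14 of the 24 genes were above 0. Of 21 pectoral fin genes, shha was called higher (1.05, adjusted p = 0.0123) and the fin fold genes and2 (-1.33, adjusted p = 0.00886) and and3 (-1.21, adjusted p = 0.00959) lower (4.76% higher and 9.52% lower, against 5.66% and 7.66% of all probe sets). The list median was 0.16, with 14 of 21 genes above 0. The summed signal was 16759 to 19358 in ERbeta2 MO, 23388 to 25984 in coMO, and 23550 to 25574 in uninjected embryos. Without and1, and2 and and3, which were set aside after their values were seen, the other 18 genes summed to 10283 to 10778 in ERbeta2 MO, 8887 to 9524 in coMO, and 7963 to 8020 in uninjected embryos. The genes and2 and and3 were also called lower against coMO (-1.21 and -1.11, adjusted p = 0.045 and 0.0462). That was 9.52% of the list, beside 0.626% of all probe sets. The and1 gene was not called against coMO (-0.83, adjusted p = 0.224) or against uninjected embryos (-0.90, adjusted p = 0.086). Of 17 tail bud and somite genes 0 was called (median 0.47), with sums of 1958 to 2115 in ERbeta2 MO, 1512 to 1571 in coMO, and 1283 to 1486 in uninjected embryos. The lowest signal of a listed gene was 3.11 in the neuron list, 8.13 in the forebrain to boundary list and 4.85 in the arch and neural crest list. It was 6.93 in the pectoral fin list and 1.72 in the tail bud and somite list. Without detection calls, such dim genes cannot be said to be present. The part of tissue composition in the Hox changes was not tested.

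The GAPDH ratio, given above per array, was highest in ERbeta2 MO, and 1 coMO array (1.23) lay below both uninjected ones. With that ratio as a covariate, 0 of 59 Hox probe sets and 0 of 15502 probe sets were called in any comparison. The Hox median was then 0.33 against coMO and 0.54 against uninjected embryos, beside 0.041 and 0.073 for all probe sets. The changes of the called probe sets were then 1.1 for hoxb3a, 1.25 for hoxa9a, 0.61 for hoxb8a, 0.67 for hoxb9a and 0.58 for hoxb10a. The changes of hoxb8a and hoxb9a against uninjected embryos thus moved by more than 1.5 times in that fit, whereas those of hoxb3a and hoxa9a stayed near the 1.11 and 1.22 of the main fit. The ratio went partly with the groups, so the fit cannot separate them. The acta1 ratio, which was not fitted, ran from 8.92 to 21.8 on the injected arrays and was 3.54 and 4.26 on the uninjected ones. It separated injected from uninjected arrays without overlap, so it cannot be told apart from injection. Whether RNA quality accounts for the changes was not tested.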

How the data were processed

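Per the labels' protocols, whole-embryo total RNA was biotin-labelled for Affymetrix arrays. The deposited values are an intensity for each probe set on each array, computed with MAS5 (no version stated) per the submitters' processing notes. Fold ratios for the 3 comparisons come from tables deposited by the authors, which list values of at least 2 or at most 0.5. Their handling of replicates is not stated in the sources used. The scaling is as deposited, and the table holds no detection calls.

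From these intensities, log2(signal + 32) was fitted with lmFit and eBayes (intensity trend) of limma 3.58.1 (R 4.3.3). A single model of the 3 groups held the 6 arrays, with 3 residual and 5.48 prior degrees of freedom. The 115 control probe sets were left out, and no signal filter was used. Tests were two-sided. With 2 arrays against 2, the smallest p of an exact permutation test is 0.333. The labels call the replicates biological, and the p-values reflect the spread among these pools alone.

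Of 15502 probe sets, 10795 carried 1 gene symbol, 135 several and 4572 none. All 59 Hox probe sets matched the gene table of assembly GRCz12tu by gene number, and no symbol changed. It was used for names and gene order only, because the array names no build. Probe sets of a Hox gene were kept apart, and in other lists the brightest stands for the gene. The members and lists were chosen with earlier results of these data known.

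Values on every array were given for Hox probe sets that were called, the 3 brightest of each axial set, the 3 largest rises and falls of each comparison, and genes with several probe sets. From other lists, up to 3 called genes per comparison were named. Others in the text were chosen after their values were seen. Data were simulated for ERbeta2 MO against coMO with 15502 probe sets, and 200 changes were placed, only in probe sets above the median level. Noise was independent and drawn from the spread that limma had fitted, so the simulation holds no difference in array quality. Of the 200 placed changes, 87% of those of 2 and 21% of those of 1 on the log2 scale were recovered, with 6 false calls. The rates do not describe Hox probe sets below the median level. These include the 15 with a mean in the lowest 25%, and the called probe sets of hoxa9a and hoxb10a had means in the lowest 50%. The number of arrays limits the precision.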

Additional observations from a re-analysis of the deposited data

How the results depend on the processing

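The number of Hox calls was 0 in ERbeta2 MO against coMO and in coMO against uninjected embryos under all alternatives run. For ERbeta2 MO against uninjected embryos it was at least 4 except in the fits given next. Adding the GAPDH ratio to the model as a covariate left 0, and the count was 0 to 9 without single arrays. Over all probe sets, calls of ERbeta2 MO against coMO numbered 129, and 266 with the lowest 25% left out, 67 with a constant prior, 201 with a robust prior, 17 with the 4 arrays compared alone, 0 with the GAPDH covariate and 0 to 1175 without single arrays. Against uninjected embryos the 2065 calls became 1323 with the 4 arrays compared alone, 0 with the covariate and 0 to 2735 without single arrays. Over all probe sets, arrays of the same replicate number did not deviate together (correlations of -0.058, 0.083 and -0.061), so the numbers were not taken as pairs. Among Hox probe sets, as given above, most were higher on the higher-numbered array in every group. With the replicate number as a block, 93 and 1660 probe sets and 0 and 4 Hox probe sets were called, and hoxb10a was the Hox call lost (adjusted p = 0.0597). It was also lost with the 4 arrays compared alone (adjusted p = 0.0656). The cause of these shifts was not tested.

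Median centring moved the median of all probe sets to 0.13 against uninjected embryos, from 0.0097, and that of Hox probe sets to 0.42, from 0.30. All 6 Hox calls were then higher, while the split over all probe sets was 1363 higher and 965 lower, in place of 877 and 1188 (against coMO, 50 and 88 in place of 32 and 97).

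Hox medians that moved by more than the spread between replicates were as follows. Against coMO the median was 0.30 with the lowest 50% left out, 0.33 with the covariate and -0.018 to 0.33 without single arrays. The anterior median was -0.0068 to 0.21, the middle -0.12 to 0.43 and the posterior 0.086 to 0.30 without single arrays, and the posterior was 0.36 with the lowest 50% left out and 0.33 with the covariate. Against uninjected embryos the median was 0.48 with the lowest 50% left out, 0.54 with the covariate and 0.16 to 0.41 without single arrays. The anterior median there was 0.55 with a pseudocount of 1, 0.54 with the lowest 50% left out, 0.48 after quantile normalization and 0.51 with the covariate. The middle median was 0.67 with the covariate and -0.0041 to 0.52 without single arrays. The posterior median was 0.38 with a pseudocount of 1, 0.39 with median centring, 0.40 after quantile normalization, 0.37 with the covariate and 0.14 to 0.39 without single arrays. Over all probe sets the median against uninjected embryos was 0.095 with the lowest 50% left out and 0.073 with the covariate. Against coMO these were 0.024 and 0.041. The 50% filter drops dimmer Hox probe sets, the called ones of hoxa9a and hoxb10a among them, so its medians describe a brighter subset. No Hox call reversed its sign. Signals near background limit the 15 dim Hox probe sets, for which the 25% filter leaves no value.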

Other observations

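The authors' deposited tables of fold ratios listed 8 Hox probe sets for ERbeta2 MO against uninjected embryos, 3 for ERbeta2 MO against coMO and 1 for coMO against uninjected embryos, all above 1. The Hox members listed were 13.6%, 5.08% and 1.69% of the 59, where the authors' deposited tables listed 15.6%, 6.7% and 3.46% of all probe sets on the array, controls included. Of all listed probe sets, 1192 of 2443, 494 of 1046 and 124 of 541 were above 1 in that order. The authors' deposited table against uninjected embryos gave 4.43 for hoxb9a, 4.01 and 2.07 for hoxa9a, 2.31 for hoxb10a, 2.25 for hoxa11b, 2.22 for hoxb3a, 2.14 for hoxb8a and 2.07 for hoxb6b. Ratios of group mean signals from the value table were 3.26 for hoxb9a, 2.81 and 1.16 for hoxa9a, 1.94 for hoxb10a, 1.21 for hoxa11b, 2.19 for hoxb3a, 2.11 for hoxb8a and 1.45 for hoxb6b. The deposited ratios were thus close to the ratios of means for hoxb3a and hoxb8a and higher for the others, and their computation is not stated in the sources used. Against coMO the authors' deposited table gave 3.06 and 2.3 for hoxa9a and 2.1 for hoxb9a, where ratios of group means were 2.41, 1.44 and 2.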
